A study of Mus musculus with 22 samples.

Results

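The 3 Period genes of the mouse, Per1, Per2 and Per3, were followed in kidneys of Clock-deficient and wild-type mice over a circadian cycle. They were 3 of 13956 genes tested, each read by 1 probe set that the platform annotation gives to that gene alone. The knockout arrays (KO) held kidney RNA of Clock(-/-) mice, and the wild-type arrays (WT) that of animals without the deletion from the same colony, which was bred from heterozygous parents. Both genotypes lived for 2 weeks under 12 h of light per day and then for 30 h in constant darkness before kidneys were collected every 4 h. Collection times are given as zeitgeber time (ZT) of the light cycle before the darkness, counted from its lights on at ZT0, with lights off at ZT12. Peak times and shifts below are therefore not times against a light cycle that was still running. There were 11 KO and 11 WT arrays. Each group of 1 genotype and 1 time had 2 arrays, except KO at ZT16 and WT at ZT8, which had 1 each. Every array measured 100 ng of RNA pooled from 2 or 3 mice, so values of single animals are not resolved. Source and tissue are labelled as whole kidney and left kidney. The sex, age and strain of the mice and the extent of the deletion were not given in the sources used here. No label says that the pools of a group came from separate litters or days, and p-values therefore cover only the spread among the pools at hand.

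The Period proteins are the slow negative arm of the circadian clock. The activators CLOCK and BMAL1 (encoded by Arntl) bind E-box sequences and drive the Per and Cry genes, and PER proteins then bind cryptochromes, enter the nucleus and inhibit those activators. PER1 and PER2 are needed for rhythm in mice, PER3 is mostly dispensable for the core oscillator, and in mouse kidney PER1 is also known as a regulator of sodium transport genes.

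The values were log2 expression, on which a difference of 1 is a doubling. Medians of the arrays ran from 5.88 to 6.01 log2, pairs of arrays correlated at 0.980 to 0.994, and 0 pairs were identical. Of the 9 kidney markers listed, 8 were measured and all 8 were above the low-value filter, with a summed level (log2 of the sum) of 15.07 to 15.14 in KO and 15.05 to 15.18 in WT. Of these 8, limma called 1 for level (9.14% of all genes), Umod, lower in KO by 0.09 on the log2 scale (adjusted p = 0.0395). None of the 5 adrenal markers was above the filter. Fat markers varied between arrays, with a summed level of 7.07 to 9.39 in KO and 7.08 to 8.01 in WT, and 0 of the 3 that were tested were called by limma. The liver-enriched gene Cyp2e1, which the kidney also expresses, was lower in KO by 0.57 on the log2 scale (limma, adjusted p = 0.00432). Apoa2, the other liver gene measured, differed by -0.006 (limma, adjusted p = 0.951). The part of fat or Cyp2e1-expressing cells in the results below was not tested. The Clock probe set read 8.73 to 9.11 in KO and 8.47 to 9.16 in WT and averaged 0.13 ± 0.04 higher in KO (limma, adjusted p = 0.0397). It therefore gives no check of the genotype labels. Over the genes that differed most between genotypes, arrays were placed on a scale from 0 (mean of WT) to 1 (mean of KO). Among the pool 2 arrays, the 4 nearest to the other genotype were KO at ZT0 at 0.51, KO at ZT8 at 0.74, KO at ZT12 at 0.52 and WT at ZT4 at 0.61. Pool 1 of WT at ZT16, at 0.29, lay closer to the other genotype than pool 2 of KO at ZT8 did. In bulk RNA, fewer cells of a type and less RNA per cell cannot be told apart.

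Promoter sequence was matched in RefSeq for 2 of the 3 genes, Per1 with 2 start sites and Per3 with 1. The 250 bases upstream of the first Per1 start (GRCm38.p6, chr11:69098699-69098948, plus strand) and of the Per3 start (GRCm38.p6, chr4:151044666-151044915, minus strand) are shown. They are written from 5′ to 3′. Capitals mark an E-box (CACGTG), the element bound by CLOCK and BMAL1, in Per1, and D-boxes (TTATGTAA), the element bound by DBP, TEF, HLF and NFIL3, in Per3.
Per1: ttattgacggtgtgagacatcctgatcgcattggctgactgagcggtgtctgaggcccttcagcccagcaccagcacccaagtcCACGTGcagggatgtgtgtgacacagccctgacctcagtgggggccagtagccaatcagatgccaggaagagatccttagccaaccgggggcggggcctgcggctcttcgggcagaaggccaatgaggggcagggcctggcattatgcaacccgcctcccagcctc
Per3: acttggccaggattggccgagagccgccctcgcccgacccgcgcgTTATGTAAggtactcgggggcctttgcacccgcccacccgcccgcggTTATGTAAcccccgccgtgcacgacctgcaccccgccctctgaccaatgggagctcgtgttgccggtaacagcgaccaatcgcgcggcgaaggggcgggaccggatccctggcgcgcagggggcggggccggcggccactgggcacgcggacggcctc
The E-box of Per1 began 166 bases upstream of the start. The D-boxes of Per3 began 205 and 158 bases upstream. Both strands of all windows were searched. Among 32851 windows of the same length, 6.02% held CACGTG and 0.931% held a D-box (TTATGTAA or TTACGTAA), while 7 windows, or 0.0213%, held 2 or more D-boxes. The window of the second Per1 start site (chr11:69099902-69100151, plus strand) held no E-box, no D-box, no cAMP response element (TGACGTCA) and no glucocorticoid response element. The Per3 window held no E-box, nor its common variant CACGTT. A match is only a run of letters in these windows, and its part in the response of any Period gene to the deletion was not tested.

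Per3 was the Period gene whose level over the cycle was lower in KO, to 0.697 of the WT level, and its fitted peak came earlier in KO, with a shift of -3.33 h. Per2 kept a rhythm in both genotypes, with an earlier peak in KO (a shift of -1.89 h) and a KO amplitude 0.580 times that of WT. Per1 had a rhythm in WT that passed the test, and in KO, where no rhythm was called, its fitted amplitude was 0.511 times that of WT. No mean-level difference of Per1 or Per2 passed the test. For no Period gene did the difference between the KO and WT waves pass its test (limma, adjusted p = 0.638 for Per1, 0.133 for Per2 and 0.236 for Per3). The interval of the Per1 amplitude difference took in 0 in 8 of 22 fits without 1 array. In the pool 2 arrays alone, the Per3 level difference was -0.20 log2 and was not called (limma, adjusted p = 0.469).

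**Figure D1:**
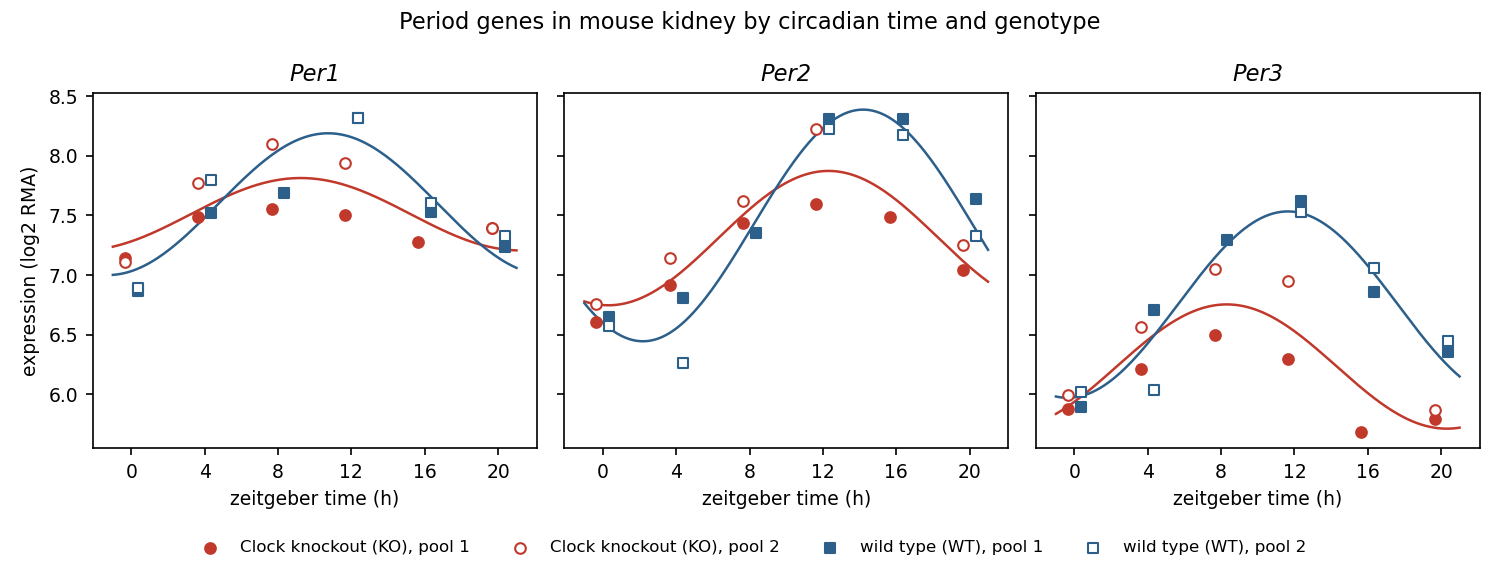
Expression (log2) of Per1, Per2 and Per3 against zeitgeber time (h), with 1 point per array, KO drawn left of WT at each time, filled points for pool 1, open points for pool 2 and lines for the fitted 24 h waves. The WT points are highest at ZT12 for Per1 and Per3 and at ZT12 and ZT16 for Per2. The KO points of Per3 lie below those of WT from ZT8 to ZT20.

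Per1, the period gene that responds most quickly to light, cAMP and glucocorticoids, read 7.14 and 7.11 in KO and 6.87 and 6.89 in WT at ZT0. At ZT4 it read 7.48 and 7.77 in KO and 7.52 and 7.80 in WT. At ZT8 the KO pools read 7.56 and 8.10, on either side of the single WT pool at 7.69. So KO lay above WT at ZT0, and the genotypes overlapped at ZT4 and ZT8. At ZT12 Per1 read 7.50 and 7.94 in KO, against 8.32 and 8.32 in WT. At ZT16 the single KO pool read 7.28, against 7.53 and 7.61 in WT. At ZT20 the values were 7.40 and 7.39 in KO and 7.24 and 7.33 in WT. KO thus lay below WT at ZT12 and ZT16 and above it again at ZT20. The WT pools at ZT12 were the highest of all 22 arrays, and the WT pools at ZT0 the lowest.

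Averaged by group, Per1 was highest at ZT8 in KO and at ZT12 in WT, and lowest at ZT0 in both genotypes. The ratio of the highest to the lowest group mean was 1.63-fold in KO and 2.72-fold in WT. In the order of the 12 group means, WT at ZT12 lay above the next mean, and WT at ZT0 below the next, by more than the SD between pools (0.18 log2), and no other neighbours differed by as much. A 24 h wave fitted to all arrays gave Per1 an amplitude, from mean to peak, of 0.30 ± 0.09 in KO and 0.60 ± 0.09 in WT (± standard error, also below). The WT rhythm passed the test (limma, adjusted p = 0.00106) and the KO rhythm did not (adjusted p = 0.133). The KO amplitude was 0.16 in the pool 1 arrays, 0.45 in the pool 2 arrays and 0.18 without pool 2 of KO at ZT8, KO at ZT12 and WT at ZT4. The amplitude difference, KO minus WT, was -0.29 log2, with a 95% interval from -0.55 to -0.03. That interval took in 0 in 8 of 22 fits without 1 array, and the difference was -0.15 without the KO pools at ZT20. The fitted Per1 peak was at ZT9.24 ± 1.17 in KO and ZT10.7 ± 0.57 in WT. Its shift of -1.49 ± 1.31 h had an interval from -4.21 to 1.22 h, which takes in 0. Without 1 array the shift ran from -0.78 h (without the KO pool at ZT16) to -2.07 h (without pool 2 of KO at ZT12). The mean level was 7.51 in KO and 7.59 in WT, a difference of -0.08 ± 0.09 (limma, adjusted p = 0.573).

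Per2, which carries a response to heat shock factor in other mouse tissues, read 6.60 and 6.76 in KO and 6.65 and 6.57 in WT at ZT0. At ZT4 it read 6.91 and 7.14 in KO, against 6.81 and 6.26 in WT. At ZT8 the KO pools read 7.44 and 7.62 and the WT pool 7.35. The genotypes overlapped at ZT0, and KO lay above WT at ZT4 and ZT8. At ZT12 Per2 read 7.60 and 8.23 in KO and 8.31 and 8.23 in WT. At ZT16 the KO pool read 7.49, against 8.31 and 8.17 in WT. At ZT20 the values were 7.05 and 7.25 in KO and 7.64 and 7.32 in WT. The genotypes overlapped at ZT12, where pool 2 of KO reached the WT level and pool 1 did not, and KO lay below WT at ZT16 and ZT20.

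The Per2 group means were highest at ZT12 in both genotypes and lowest at ZT0 in KO and at ZT4 in WT. The WT means at ZT12 and ZT16 differed by less than the SD between pools (0.22 log2), so WT held its high level over both times. The fold between the highest and the lowest group mean was 2.35 in KO and 3.33 in WT. The fitted amplitude was 0.56 ± 0.07 in KO and 0.97 ± 0.07 in WT, and the rhythm passed the test in both (limma, adjusted p = 0.00115 in KO and 1.81e-07 in WT). The amplitude was lower in KO by 0.41 log2, with an interval from -0.62 to -0.20. The fitted peak was at ZT12.3 ± 0.51 in KO and ZT14.2 ± 0.30 in WT. This shift of -1.89 ± 0.59 h had an interval from -3.11 to -0.66 h. The mean level was 7.31 in KO and 7.42 in WT, a difference of -0.11 ± 0.07 (limma, adjusted p = 0.378).

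Per3, the paralog whose loss leaves mouse behaviour largely rhythmic, read 5.87 and 5.99 in KO and 5.90 and 6.02 in WT at ZT0. At ZT4 it read 6.21 and 6.57 in KO and 6.70 and 6.03 in WT. At ZT8 the KO pools read 6.50 and 7.05, against 7.29 in the WT pool. The genotypes overlapped at ZT0 and ZT4, and KO lay below WT at ZT8. At ZT12 Per3 read 6.30 and 6.95 in KO, against 7.62 and 7.53 in WT. At ZT16 the KO pool read 5.68, against 6.86 and 7.06 in WT. At ZT20 the values were 5.79 and 5.86 in KO and 6.36 and 6.45 in WT. All KO pools lay below all WT pools at each time from ZT8 to ZT20. The KO pool at ZT16 was the lowest of all 22 arrays, at a time when WT was still above its own daily mean.

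The Per3 group means were highest at ZT8 in KO and at ZT12 in WT, and lowest at ZT16 in KO and at ZT0 in WT. The fold between the highest and the lowest was 2.13 in KO and 3.07 in WT. In the order of the 12 group means, WT at ZT12 and WT at ZT8 headed the list and each stood above its next neighbour by more than the SD between pools (0.26 log2). The 4 lowest groups, KO at ZT0, ZT16 and ZT20 and WT at ZT0, lay below the next mean by more than that SD, and neighbours among these 4 did not differ beyond it. The fitted amplitude was 0.52 ± 0.09 in KO and 0.78 ± 0.09 in WT, and the rhythm passed the test in both (limma, adjusted p = 0.00899 in KO and 7.76e-05 in WT). The amplitude difference was -0.26 log2, with an interval from -0.53 to 0.01 that takes in 0. The fitted peak was at ZT8.31 ± 0.70 in KO and ZT11.6 ± 0.46 in WT. Its shift was -3.33 ± 0.84 h, with an interval from -5.08 to -1.58 h. The mean level was 6.23 in KO and 6.75 in WT, a difference of -0.52 ± 0.09 (limma, adjusted p = 0.000987).

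**Figure D2:**
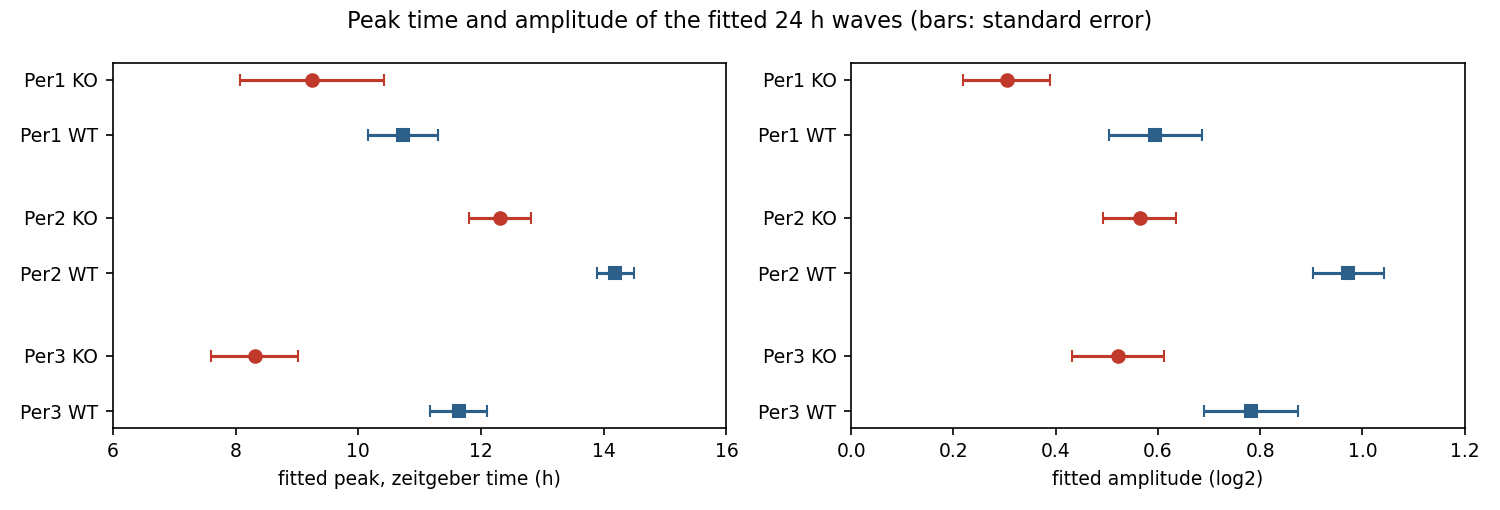
Fitted peak time (zeitgeber time, h) and fitted amplitude (log2) of each Period gene, with KO above WT and bars for the standard error. The KO peak lies to the left of the WT peak for each gene, with shifts of -1.49 h for Per1 (interval taking in 0), -1.89 h for Per2 and -3.33 h for Per3, and each KO amplitude is the smaller.

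Of the 3 Period genes, 1 was thus called for mean level, where 9.14% of all genes tested were called and 3.91% were lower in KO. A rhythm was called for 2 of 3 in KO, against 2.49% of all genes, and for 3 of 3 in WT, against 6.48%. Both genotypes were called rhythmic for 2 of 3, against 1.13%. The test of the difference between the KO and WT waves, adjusted over all genes, called 0 of 3, against 0.043% of all genes. At an unadjusted limma p under 0.05 it took in 3 of 3, against 7.79%. The size of that difference, the length of the vector between both waves, was 0.33 log2 for Per1 (limma, adjusted p = 0.638), 0.55 for Per2 (adjusted p = 0.133) and 0.60 for Per3 (adjusted p = 0.236). The intervals of the peak shifts above come from the same fit, were not adjusted for the number of genes, and carry no p.

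The pool arrays gave unequal values. Pool 2 has no KO array at ZT16 and no WT array at ZT8, so its fit compares the genotypes over unlike times. In fits to the 12 pool 1 arrays alone and to the 10 pool 2 arrays alone, the mean-level difference of Per3 was -0.73 in pool 1 (limma, adjusted p = 0.000499) and -0.20 in pool 2 (adjusted p = 0.469). That of Per2 was -0.33 in pool 1 (limma, adjusted p = 0.0115) and 0.20 in pool 2 (adjusted p = 0.494), so its sign differed between the pools. That of Per1 was -0.13 and -0.05. The peak shifts moved less for Per2, at -1.87 h in pool 1 and -1.60 h in pool 2, and for Per3, at -3.19 and -3.51 h, than for Per1, at -2.0 and -0.29 h. The KO rhythm of Per2 had an amplitude of 0.50 in pool 1 (limma, adjusted p = 0.0948) and 0.70 in pool 2 (adjusted p = 0.101), and that of Per3 0.39 (adjusted p = 0.202) and 0.63 (adjusted p = 0.0930). Neither was called in these smaller sets. Without pool 2 of KO at ZT8, KO at ZT12 and WT at ZT4, the level of Per3 differed by -0.69 (limma, adjusted p = 1.38e-06) and that of Per2 by -0.22 (adjusted p = 0.0236), which was then called. In that set the wave differences of Per2, 0.53 (limma, adjusted p = 0.0203), and of Per3, 0.66 (adjusted p = 0.00339), were called as well. The arrays left out there were among those nearest to the other genotype, so their removal by itself tends to widen KO minus WT. The calls of that set are therefore no added support for a difference. Without the KO pools at ZT20 the KO rhythm of Per3 was no longer called, with an amplitude of 0.62 (limma, adjusted p = 0.111).

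**Figure D3:**
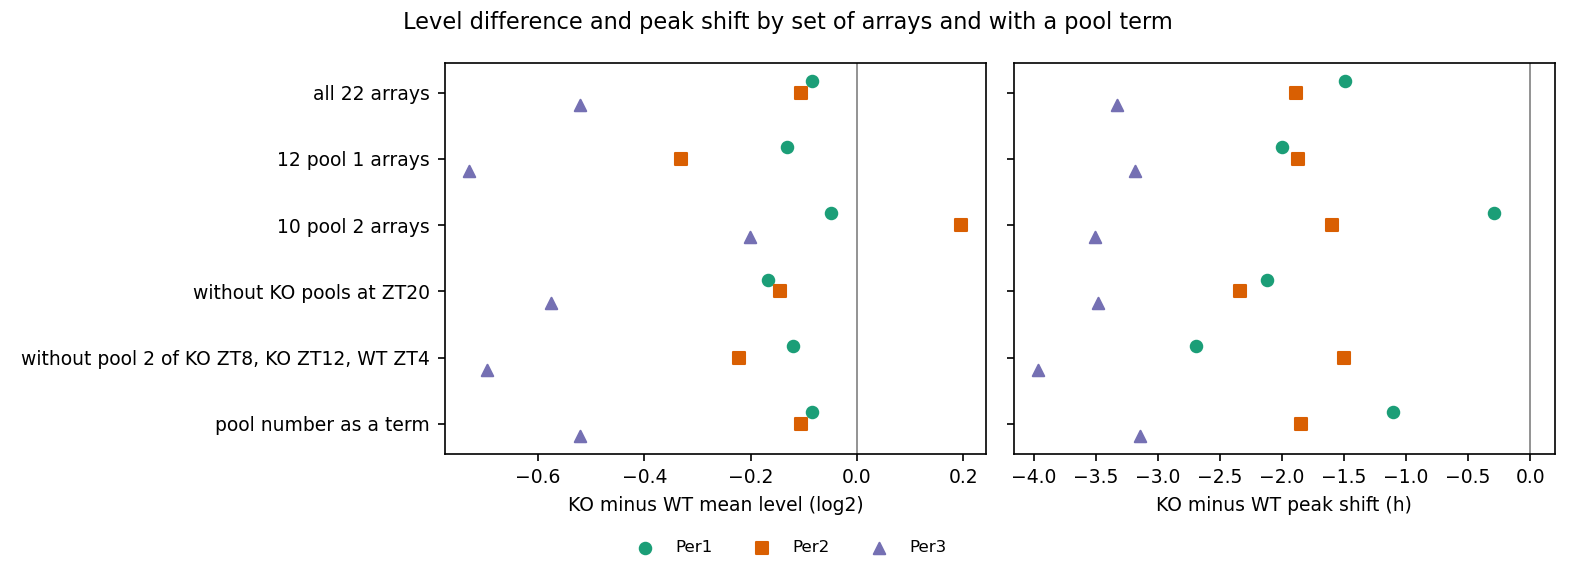
KO minus WT mean level (log2) and peak shift (h) of each Period gene in all 22 arrays, in 4 smaller sets of arrays and with the pool number as a term in the fit. Per3 stays between -0.73 and -0.20 log2 and between -3.97 and -3.15 h, while the Per2 level is 0.20 in the pool 2 arrays and below 0 in the other sets.

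At single times, 0 of the 18 differences (3 genes at 6 times) were called after limma's adjustment over all genes, and an unadjusted p under 0.05 was reached by 6. The shares of all genes called after adjustment were 0.0287% at ZT0, 0.00717% at ZT4, 0.0287% at ZT8, 0.122% at ZT12, 0.0143% at ZT16 and 1.75% at ZT20. The largest difference was that of Per3 at ZT16, -1.28 ± 0.28, or 0.413 of WT (limma, adjusted p = 0.162), which rests on 1 KO pool. The next was Per3 at ZT12, -0.95 ± 0.23, or 0.517 of WT (limma, adjusted p = 0.130). At ZT20 Per3 differed by -0.57 ± 0.23 (limma, adjusted p = 0.202). The remaining 3 of the 6 were Per2 at ZT16, -0.75 ± 0.24 (limma, adjusted p = 0.423), Per1 at ZT12, -0.60 ± 0.16 (adjusted p = 0.234), and Per2 at ZT4, 0.49 ± 0.19 (adjusted p = 0.9996). Single pools moved these values. Per2 at ZT4 was 0.77 without pool 1 and 0.22 without pool 2 of WT. At ZT12, Per1 was -0.38 and Per3 -0.63 without pool 1 of KO, and Per1 was -0.82 and Per3 -1.28 without pool 2 of KO. Shares of all genes at an unadjusted p under 0.05 were 4.43% at ZT0, 3.77% at ZT4, 5.76% at ZT8, 7.05% at ZT12, 7.01% at ZT16 and 18.7% at ZT20.

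The pools of the genotypes did not overlap for Per3 at 4 of 6 times, with KO below WT in each. All KO pools lay below all WT pools for 39.6% of all genes at ZT8, 16.3% at ZT12, 30.4% at ZT16 and 22.6% at ZT20, as there are few pools per group. At ZT0 and ZT4, where Per3 overlapped, the shares were 14.1% and 14.8%. Per1 was above WT without overlap at ZT0 (19.8% of all genes) and ZT20 (30.4%) and below it at ZT12 and ZT16. Per2 was above WT without overlap at ZT4 (11.1% of all genes) and ZT8 (34.8%) and below it at ZT16 and ZT20. KO pools lay above all WT pools for 15.8% of all genes at ZT12 and 34.7% at ZT16, times at which none of the Period genes did so.

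**Figure D4:**
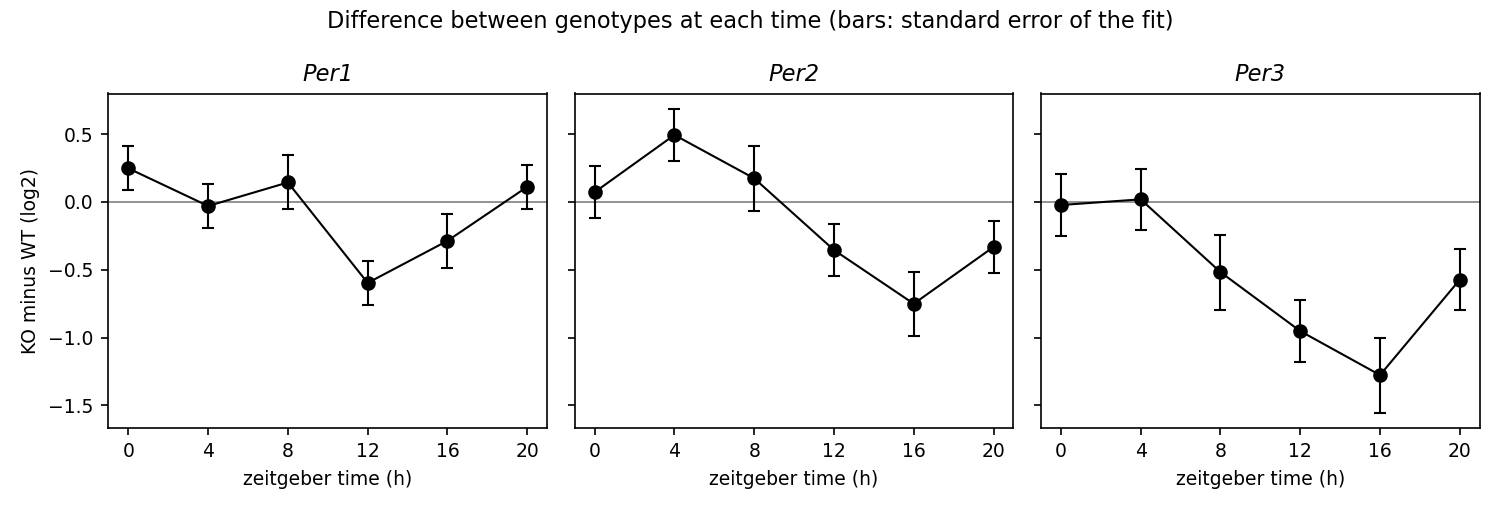
KO minus WT difference (log2) of each Period gene at each zeitgeber time (h), with bars for the standard error of the fit. Per3 is near 0 at ZT0 and ZT4 and lowest at ZT16 at -1.28, Per2 is highest at ZT4 at 0.49 and lowest at ZT16 at -0.75, and Per1 is lowest at ZT12 at -0.60.

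Level differences between the paralogs were taken within each array, for 3 pairs of genes. Peak contrasts are differences of separately fitted peaks, with intervals that allow for the shared arrays. The KO minus WT level difference of Per3 was below those of the other two, with Per3 minus Per1 at -0.44 ± 0.11 log2 (interval from -0.67 to -0.21) and Per3 minus Per2 at -0.41 ± 0.07 (interval from -0.55 to -0.27). Per2 minus Per1 was -0.02, with an interval from -0.25 to 0.20. In pool 2 alone, Per3 minus Per1 was -0.15 and its interval took in 0, while Per3 minus Per2 was -0.40 in each pool. The order of the peaks was Per3, Per1, Per2 in KO and Per1, Per3, Per2 in WT. The Per2 peak followed that of Per1 by 3.06 h in KO (interval from 0.34 to 5.79 h) and 3.46 h in WT (2.08 to 4.83 h). In KO, peak contrasts with Per1 rest on a Per1 rhythm that was not called. The Per3 peak came before that of Per2, with Per3 minus Per2 at -3.99 h in KO (interval from -5.54 to -2.45 h) and -2.55 h in WT (-3.39 to -1.71 h). Peaks of Per3 and Per1 could not be told apart, with Per3 minus Per1 at -0.93 h in KO (-3.49 to 1.63 h) and 0.91 h in WT (-0.42 to 2.24 h). No pair differed in its shift beyond the interval, since Per3 minus Per2 was -1.44 h (-3.20 to 0.32 h), Per3 minus Per1 -1.84 h (-4.72 to 1.05 h) and Per2 minus Per1 -0.39 h (-3.45 to 2.66 h).

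The 3 genes moved together from array to array to unequal extents. Over arrays of one genotype, which share a time course, the correlation of Per1 and Per3 was 0.914 in KO and 0.825 in WT (n = 11 arrays each). That of Per1 and Per2 was 0.711 in KO and 0.566 in WT, and that of Per2 and Per3 0.625 in KO and 0.801 in WT. The gaps between both pools of a group, which share no time course but do share their arrays, correlated at 0.834 for Per2 and Per3, 0.423 for Per1 and Per3 and 0.329 for Per1 and Per2 (n = 10 groups). The largest gaps were 0.55 for Per1 (KO at ZT8), 0.63 for Per2 (KO at ZT12) and 0.67 for Per3 (WT at ZT4). These groups are 3 of the 4 whose pool 2 lay nearest to the other genotype.

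**Figure D5:**
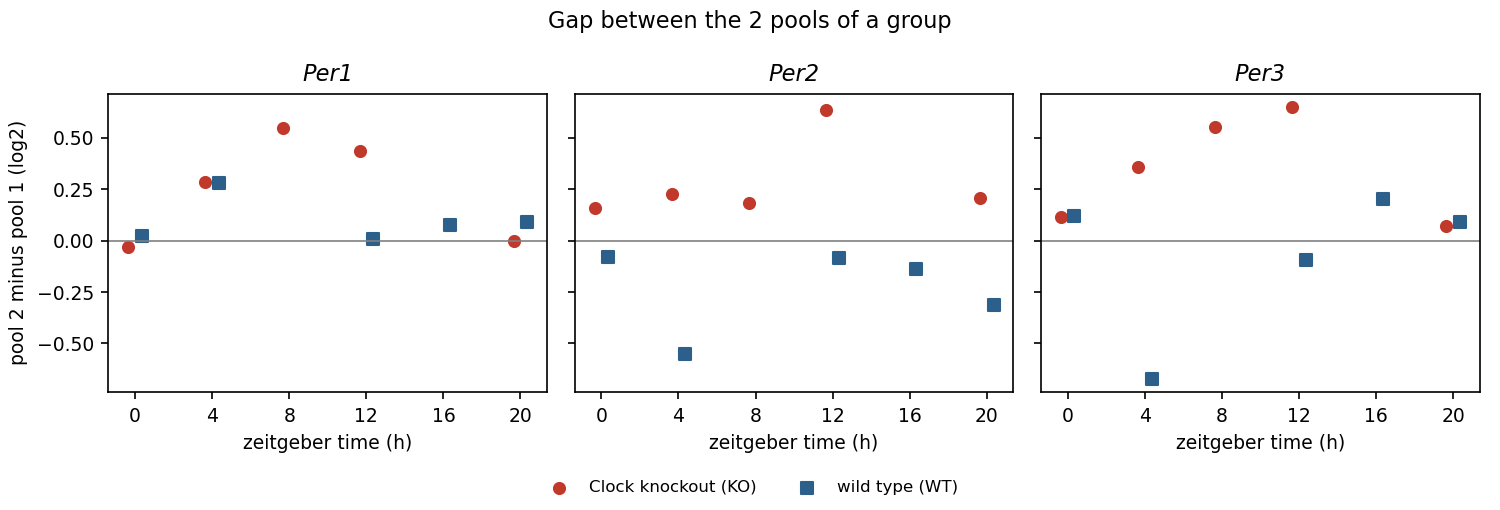
Pool 2 minus pool 1 (log2) of each Period gene in the 10 groups with both pools, by zeitgeber time (h), with KO drawn left of WT. Per2 gaps are above 0 at all 5 KO times and below 0 at all 5 WT times, and the widest gap is that of Per3 in WT at ZT4 at -0.67.

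Each Period gene had its own closest genes over the 22 arrays, by Pearson correlation of log2 values, which reflects genotype, time and pool alike. Per3 was closest to Tef, a D-box activator of the PAR bZIP family, at r = 0.978, then to the deubiquitinase Usp2 at 0.949, the mitophagy receptor Bnip3 at 0.949, the tetraspanin Tspan4 at 0.941 and Lonrf1 at 0.933. The lowest correlations of Per3 were with Dtx4 (-0.957), the monocarboxylate transporter Slc16a1 (-0.944) and the phosphatase Ppm1h (-0.930). Per2 was closest to the adenylate kinase Ak4 (0.922), the glucocorticoid-induced leucine zipper gene Tsc22d3 (0.916), the gluconeogenic enzyme Pck1 (0.900), the mitochondrial carrier Slc25a13 (0.883) and the kinase p38α, Mapk14 (0.878). At the other end were Stra6l (-0.870), the retinol esterifying enzyme Lrat (-0.849) and the decarboxylase Ddc (-0.848). Per1 had looser neighbours, led by Tob2 (0.883), the cold-induced RNA-binding gene Rbm3 (0.857), Il17rb (0.851), Bnip3 (0.839) and Cpeb3 (0.833). Its lowest were Arhgef10l (-0.851), Snx29 (-0.830) and the retinol dehydrogenase Rdh10 (-0.813). Bnip3 was the gene that stood among the 5 closest of both Per1 and Per3.

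All 5 closest genes of Per3 were called lower in KO (3.91% of all genes) and the 3 most opposed to it higher (5.24%). The correlation over both genotypes already takes in this difference. Tef was lower in KO by 0.41 on the log2 scale (8.88 in KO, 9.29 in WT; limma, adjusted p = 0.00149), and its fitted peak was at ZT8.95 in KO and ZT11.2 in WT, a shift of -2.23 h. Usp2 was lower by 0.28 (limma, adjusted p = 0.00832) and Tspan4 by 0.41 (adjusted p = 3.72e-05). Slc16a1 and Dtx4, which ran opposite to Per3, were higher in KO by 0.66 (limma, adjusted p = 5.34e-05) and 0.39 (adjusted p = 0.000677). The genes named for Per2 were mixed. Its closest gene Ak4 was called lower in KO, at -0.21 (limma, adjusted p = 0.0181). Lrat and Ddc, which ran opposite to Per2, were called higher, at 0.22 (limma, adjusted p = 0.0127) and 0.48 (adjusted p = 7.34e-06). Pck1, Slc25a13, Mapk14 and Stra6l were not called for level. Nor was Tsc22d3, with a difference of -0.04 (limma, adjusted p = 0.735), amplitudes of 0.43 in KO and 0.64 in WT and a shift of -2.57 h. Of the genes named for Per1, Bnip3 was called lower, at -0.16 (limma, adjusted p = 0.00858), and Arhgef10l higher, at 0.15 (adjusted p = 0.0483). Tob2, Rbm3, Il17rb, Cpeb3, Snx29 and Rdh10 were not called for level.

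Other genes of the Period pathway were read in 11 lists of 75 genes, of which 66 were tested. Of these, 4 were higher in KO, 10 were lower and 52 were not called for mean level, where 5.24% of all genes tested were higher and 3.91% lower. An unadjusted limma p under 0.05 for level was reached by 26 of the 66 and by 25.1% of all genes. Their median difference was 0.02 log2, against 0.00 over all genes. A rhythm was called for 8 of 66 in KO, against 2.49% of all genes, and for 23 of 66 in WT, against 6.48%. The amplitude had a median of 0.10 log2 in KO and 0.12 in WT, against 0.07 and 0.09 over all genes.

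Among the partners of PER proteins, 1 of 6 was higher in KO (5.24% of all genes) and 1 lower (3.91%). Cry1, the cryptochrome that PER carries to the nucleus, was higher by 0.69 ± 0.08 (7.48 in KO, 6.79 in WT; limma, adjusted p = 9.70e-06). Its fitted peak was at ZT15.9 in KO and ZT17.7 in WT, and its KO rhythm was not called (adjusted p = 0.0760). Ciart, a repressor of CLOCK and BMAL1 activity, was lower by 1.08 (5.51 in KO, 6.59 in WT; limma, adjusted p = 0.00898). Cry2 had a called rhythm in WT (amplitude 0.51, limma, adjusted p = 8.33e-05), while its level difference was 0.18 (adjusted p = 0.0806).

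Of the E-box activators, 2 of 3 were called higher in KO (5.24% of all genes). One of these is the targeted gene itself, Clock, at the 0.13 given above, and the other is Arntl. Arntl, the partner of CLOCK, was higher by 1.01 ± 0.10 (8.15 in KO, 7.14 in WT; limma, adjusted p = 2.38e-06), and its amplitude was 0.62 in KO and 1.55 in WT. The other repressors of E-boxes had 0 of 5 called for level by limma (1 of 5 at an unadjusted p under 0.05), where 9.14% of all genes were called and 25.1% had such an unadjusted p, with Bhlhe41 at -0.26 and Bhlhe40 at -0.03.

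Of the 4 genes tested that act through the D-box, 2 were lower in KO (3.91% of all genes) and 1 higher (5.24%), and all 4 had a called rhythm in WT (6.48%). Dbp, an activator, was lower by 0.86 ± 0.22 (7.90 in KO, 8.76 in WT; limma, adjusted p = 0.0158), with amplitudes of 0.78 in KO and 1.91 in WT. Nfil3, the repressor of the same element, was higher by 0.55 ± 0.09 (7.66 in KO, 7.11 in WT; limma, adjusted p = 0.000618). Among the REV-ERB and ROR nuclear receptors, which repress and activate Arntl, 3 of 3 were lower (3.91% of all genes), Nr1d2 by 0.67 (limma, adjusted p = 0.000157), Nr1d1 by 0.55 (adjusted p = 0.00470) and Rora by 0.18 (adjusted p = 0.0269).

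Other genes act on PER proteins after translation. The kinases and phosphatases of PER had 0 of 10 called for level by limma, and 0 of 10 at an unadjusted p under 0.05, against 9.14% and 25.1% of all genes. Of the ligases and proteases of PER and CRY, 1 of 7 was lower (3.91% of all genes), the deubiquitinase Usp2. Fbxl21 and Btrc had level differences of 0.04 and 0.12 that were not called. Their rhythms in WT were called, with amplitudes of 0.42 for Fbxl21 (limma, adjusted p = 0.00534) and 0.20 for Btrc (adjusted p = 0.0132). With Usp2, 3 of 7 in that list had a called WT rhythm, against 6.48% of all genes.

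Signals that reach Per promoters from outside the clock gave 3 called members in 2 of 3 lists. Sik1, the salt-inducible kinase that restrains cAMP response of Per1, was lower by 0.42 ± 0.05 (9.03 in KO, 9.45 in WT; limma, adjusted p = 3.72e-05), and was the 1 called of 9, against 9.14% of all genes. In the glucocorticoid list 2 of 7 were lower (3.91% of all genes), Hsd11b1, which regenerates active glucocorticoid, by 0.56 (limma, adjusted p = 4.06e-05), and the receptor co-chaperone Fkbp5 by 0.49 (adjusted p = 0.000704). A rhythm in WT was called for 4 of 7 in that list, against 6.48% of all genes. Among them were Zbtb16, Tsc22d3 and Sgk1, with amplitudes of 0.77, 0.64 and 0.43. The heat shock list had 0 of 5 called for level by limma (2 of 5 at an unadjusted p under 0.05, against 25.1% of all genes). In WT a rhythm was called for 2 of 5, Hsph1 and Hsp90aa1, against 6.48% of all genes. Of 7 renal genes reported to respond to PER1, among them the sodium channel subunit Scnn1a, 0 were called for level by limma, and 2 of 7 had an unadjusted p under 0.05, a share near the 25.1% of all genes.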

How the data were processed

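Kidney RNA pools were measured on 22 Affymetrix whole-transcript arrays. The authors deposited log2 expression per probe set, made with RMA per the submitters' processing notes, with its version and genome build not given in the sources used here. RMA brings arrays to one distribution, so a shift of most genes one way would be removed. There is no read depth, and the number of arrays sets the precision.

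Of 35556 probe sets, 21789 have 1 gene symbol, 1621 several and 12146 are not listed. The brightest single-symbol probe set by mean stood for each of 19938 genes, and genes below the 30th percentile (5.21 log2) were left out, which left 13956. All 3 Period genes passed on every array.

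A 24 h wave (level, cosine and sine terms) per genotype was fitted by limma (version 3.58.1, under R 4.3.3) (16 residual degrees of freedom), and 12 group means for single times (10). Calls are Benjamini-Hochberg adjusted p under 0.05 over all genes. Intervals of peak time and amplitude (95%) came by the delta method. In the group means, a group of 1 pool borrows the spread of the others. Scripts were tested on simulated data. The named genes were the Period genes, the 5 most and 3 least correlated genes of each, and up to 4 called and 3 WT-rhythmic members per list. Members and lists were chosen with earlier results of these data known. Contrasts of peak time between paralogs, and the set without 4 pool 2 arrays, were chosen after the values were seen. The labels do not say that pool numbers pair samples. Deviations of KO and WT pools of the same time correlated at 0.00 to 0.39 (median 0.27), with 3 of 4 above 0.1. Over all 45 pairs of groups the median was 0.12, with 25 above 0.1. With 4 such pairs, pairing was neither shown nor excluded, and the main fits did not use it. Alternatives covered filters, scaling, the wave model, the spread, array weights and left-out arrays.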

Additional observations from a re-analysis of the deposited data

Results flagged for a closer look

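Per2 gaps between the pools of a group ran in opposite directions in the genotypes, and this difference was not tested. Pool 2 lay above pool 1 at all 5 KO times with both pools, by 0.16 to 0.63 log2 (mean 0.28), and below pool 1 at all 5 WT times, by a gap of -0.55 to -0.08 (mean -0.23). The KO mean gap exceeded the WT mean gap by 0.515 log2. Per3 gaps were above 0 at 5 of 5 KO times and 3 of 5 WT times, and Per1 gaps at 3 of 5 KO times and 5 of 5 WT times.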

How the results depend on the processing

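Across the alternatives, the WT rhythms of Per2 and Per3 were called and the peak shifts of Per2 (-2.34 to -1.49 h) and Per3 (-3.97 to -3.15 h) excluded 0 in every set, and leaving out 1 array gave -2.20 to -1.64 h and -4.12 to -2.55 h. The level of Per3 was called in all sets but pool 2. With 22 arrays left out in turn it ranged from -0.58 to -0.47. The cause of the changes below was not tested. In pool 1 alone, the Per2 level was -0.33, the KO amplitudes 0.50 for Per2 and 0.39 for Per3, the Per3 amplitude difference -0.39 and the Per2 minus Per1 level contrast -0.20. In pool 2 alone, the levels were 0.20 for Per2 and -0.20 for Per3, the Per1 WT amplitude 0.70 (adjusted p = 0.194) and amplitude difference -0.25, the KO amplitudes 0.70 for Per2 and 0.63 for Per3, and the level contrasts 0.25 for Per2 minus Per1 and -0.15 for Per3 minus Per1. Without pool 2 of KO at ZT8, KO at ZT12 and WT at ZT4, the Per2 level was -0.22, the wave differences 0.53 for Per2 and 0.66 for Per3, and the Per3 amplitude difference -0.37. Leaving out these arrays, which were among those nearest to the other genotype, by itself tends to widen a difference between genotypes. In that set, values at single times that were called were -0.82 for Per1 at ZT12, and -1.28, -1.28 and -0.57 for Per3 at ZT12, ZT16 and ZT20, and values that changed sign were 0.11 for Per1 at ZT4, -0.13 for Per1 at ZT8 and -0.32 for Per3 at ZT4. Leaving out KO at ZT0 pool 2 as well, a set chosen after the data were seen, gave these values again to 2 decimals, and -0.0069 for Per2 at ZT0.

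Without the KO pools at ZT20, the Per1 shift was -2.12 h and excluded 0, its amplitude difference -0.15, the Per3 KO amplitude 0.62 and Per2 minus Per1 0.022. Without ZT20 of both genotypes, the Per1 amplitude difference was -0.23 and the Per3 KO amplitude 0.62. Array weights called the Per1 KO rhythm (0.34, adjusted p = 0.0374), which no other setting did, with amplitudes from 0.15 to 0.45. The Per1 shift was -2.70 h without 3 and -3.75 h without 4 pool 2 arrays, with intervals that took in 0, and -2.07 to -0.78 h without 1 array. Free levels at each time lost the KO rhythms of Per2 (0.55, adjusted p = 0.0567) and Per3 (0.55, adjusted p = 0.168), and a 12 h wave lost that of Per3 (0.54, adjusted p = 0.0575). With repeated quantile normalization the Per3 amplitude difference was -0.26 as before, and its interval excluded 0. With the pool number as a replicate block, the Per3 amplitude difference was -0.28 and excluded 0, the Per3 level was -0.52 (adjusted p = 0.000797), and no other call of a Period gene changed. With a filter at the 50th percentile (6.55 log2), Per3 was not tested.

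Leaving out 1 array moved the Per1 amplitude difference between -0.39 and -0.24, and its interval took in 0 without either WT pool at ZT0 or ZT12, either KO pool at ZT20, or pool 1 of KO at ZT8 or ZT12. The Per3 amplitude difference ran from -0.33 to -0.20 and excluded 0 without KO pool 2 at ZT8 or ZT12, the KO pool at ZT16, WT pool 1 at ZT4 or ZT16, or WT pool 2 at ZT20. The Per2 wave difference ran from 0.47 to 0.61 and was called without KO pool 2 at ZT12 (adjusted p = 0.0265). Signs turned for uncalled values, with ranges of -0.17 to 0.11 for Per1 at ZT4, -0.13 to 0.42 for Per1 at ZT8, -0.0069 to 0.15 for Per2 at ZT0, -0.084 to 0.038 for Per3 at ZT0, -0.32 to 0.35 for Per3 at ZT4, and -0.11 to 0.036 for Per2 minus Per1.

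Counts over all genes varied more than 1.5 times. Genes called for level (1276) were 823 with free levels, 2349 with array weights, 565 in pool 1, 1 in pool 2, 640 without KO at ZT20 and 435 without ZT20. For rhythm in KO (348) the counts were 228 unfiltered, 59 with free levels, 118 with a 12 h wave, 697 with weights, 197 with KO alone, 0 in either pool set, 12 and 8 without ZT20 in KO or both, 58 and 178 without 3 or 4 pool 2 arrays, and 77 to 476 without 1 array. It was 206 without pool 1 of KO at ZT0, 160 and 196 without pool 2 of KO at ZT8 and ZT12, and 146 and 77 without pool 1 and pool 2 of KO at ZT20. For rhythm in WT (905) they were 140, 312, 363 with WT alone, 95 and 14 in the pools, 510, 595 and 589 in the same sets, and 602 to 954 without 1 array, lowest without WT at ZT12 pool 2. For the wave difference (6) they were 10 with the 50th percentile, 1 and 1 with free levels and a 12 h wave, 11 with weights, 3 and 0 in the pools, 3 and 2 without ZT20, 20 and 21 without 3 or 4 arrays, and 1 to 11 without 1 array, highest without pool 2 of KO at ZT12.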
